A study of Mus musculus with 16 samples.

Results

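The difference between a pair of Foxp3 genotypes was compared between regulatory T cells (Tregs) and conventional CD4 T cells (Tconv) of the mouse spleen. For each gene the quantity examined was the interaction, which is the knock-in minus wild-type difference in Tregs less the same difference in Tconv, on the log2 scale. A positive interaction means that the knock-in stood higher, relative to wild type, in Tregs than in Tconv. All 16 of the 16 arrays of the study entered it, 4 in each of the 4 groups, because the contrast is defined by the labels of cell type and genotype alone.

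The cells came from untreated NOD/LtJ mice, a strain that develops autoimmune diabetes, at 6 weeks of age. Wild-type (WT) mice carried Tg(Foxp3-EGFP/cre)1aJbs, a transgene that makes a fusion of EGFP and Cre under the control of Foxp3 sequences. Knock-in (KI) mice carried Foxp3tm2Ayr, which the labels call Foxp3gfp, an allele that joins GFP to the Foxp3 protein itself. The genotypes therefore differ in the Foxp3 allele, in the presence of Cre and in the kind of reporter, and their parts in any difference cannot be told apart. The sorting gate in the labels is CD3 and CD4 positive and GFP negative for every sample, also for Tregs, and how Tregs were gated is not clear from it. Whether different animals gave the 4 arrays within a group is not stated, and p-values then measure only the spread between these samples, which may be technical.

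Tregs restrain immune responses and depend on the transcription factor Foxp3, which acts together with many partner proteins on chromatin. A fraction of Tregs, called effector Tregs, has been activated, divides and enters tissues. Its genes include Klrg1, Icos, Itgae, Prdm1 and Gzmb, and also Irf4, Batf and Maf. Resting Tregs and most Tconv of the spleen express these genes at lower levels and divide rarely.

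The labelled cell types were checked against Foxp3, which read 9.72 to 10.16 on the WT Treg arrays and 9.39 to 10.05 on the KI Treg arrays. On the Tconv arrays it read 4.24 to 4.96 in WT and 3.57 to 3.78 in KI, close to the control probe sets without a specific target, whose highest value was 4.71. Values below about 5 lie near background, where differences understate the true fold. Between 17581 and 17990 probe sets per array exceeded a log2 value of 5, and the number of arrays limits the precision. Summed unlogged signals of marker genes of other cell types varied widely within groups, for neutrophil genes from 95.7 to 3804 among WT Tregs and from 120.4 to 1099 among KI Tconv. No tested marker of erythroid cells, neutrophils, monocytes, NK cells, CD8 T cells, B cells, plasma cells or dendritic cells passed for the interaction in limma. The 5 tested neutrophil markers all had positive interactions (median 0.88). Markers that spread this widely could hardly pass, and the part of such cells in the interactions was not tested. All 5 platelet and all 6 stromal markers stayed under 5 on every array. The array titles fall into 3 runs of numbers. Numbers 4 to 9 are all WT, numbers 13 to 23 are all KI, and numbers 24 to 27 hold replicate 4 of each group. The estimate of the interaction is the same with the run as an additive term, because every run holds its cell types in equal numbers. When array weights were estimated, KI Tconv 4 had the lowest (0.332) and KI Treg 1 the highest (3.36).

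For most genes that passed, KI stood higher than WT in Tregs and lower or about level in Tconv. Of 8139 genes tested with limma, 64 passed for the interaction at an adjusted p under 0.05 (0.786%), 54 positive (0.663%) and 10 negative (0.123%). At an unadjusted p under 0.05 there were 673. The median interaction over all genes was 0.02. Among the 54 positive genes the median size was 1.06, the median KI minus WT difference was 0.73 in Tregs and -0.32 in Tconv, and 46 had opposite signs in the cell types. The genotype difference alone passed for 231 genes in Tregs (2.84%), 162 higher in KI (1.99%) and 69 lower (0.848%), and for 11 genes in Tconv (0.135%), all 11 lower in KI. Because the first runs of numbers hold a single genotype each, this count depends on the run term, with 29 in Tregs and 5 in Tconv when 3 runs were a fixed block, and 130 in Tregs when they were a random block. The interaction passed for 87 and 75 genes with these blocks, and for 453 genes (342 positive, 111 negative) with array weights. The KI and WT arrays did not overlap for 50 of the 54 positive genes in Tregs and for 18 in Tconv, against 8.12% and 3.74% of all genes. The 54 were chosen by an interaction taken from these same arrays, which favours opposite signs and a lack of overlap. Of the 54, 41 passed for the genotype difference in Tregs, 7 in Tconv, 6 in neither and none in both cell types. Leaving out KI Tconv 4 raised the number that passed for the interaction to 104, and leaving out KI Treg 1 or WT Treg 1 lowered it to 37 or 42. The genotype difference in Tregs passed for 101 and 126 genes without KI Treg 1 or 2, for 106, 130 and 139 without WT Treg 1, 3 or 4, and for 571 without KI Treg 4. In Tconv it passed for 65 genes without KI Tconv 4 and for 7 without KI Tconv 2.

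**Figure D1:**
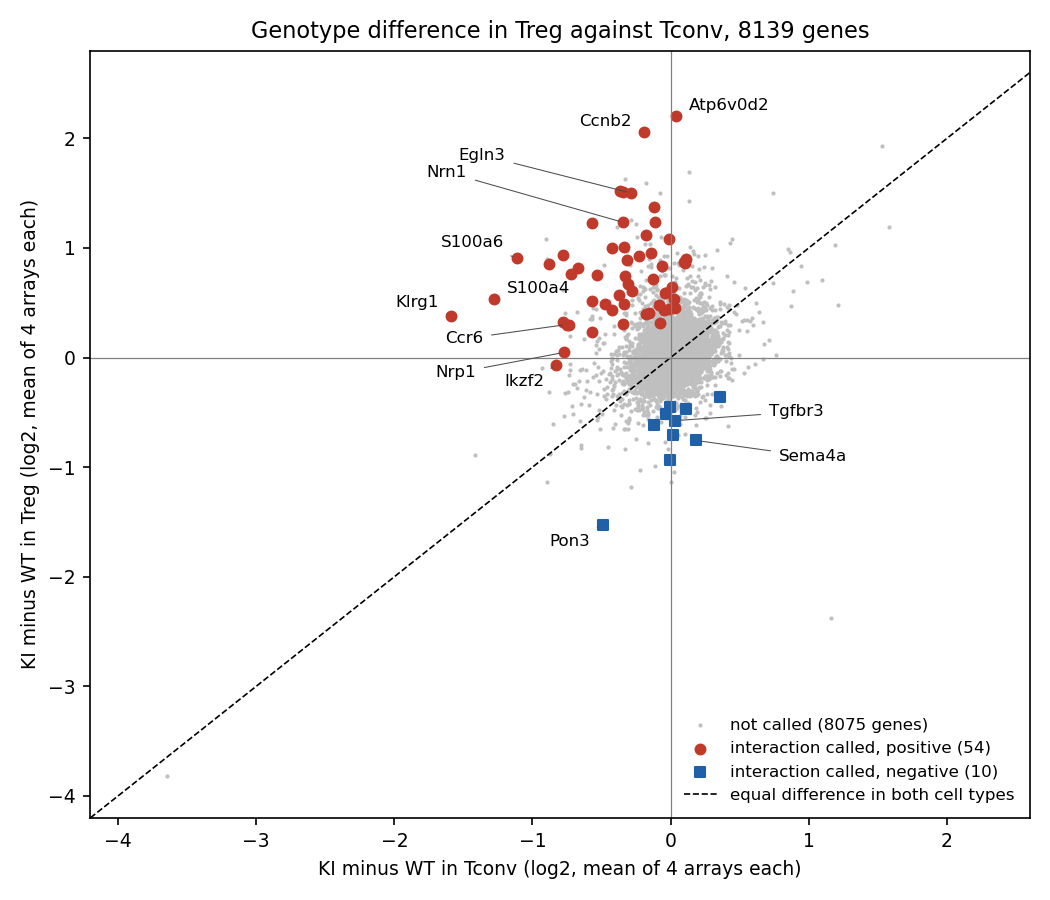
The KI minus WT difference of each of 8139 genes in Tconv (horizontal axis, log2) is plotted against the difference in Tregs (vertical axis, log2), each from means of 4 arrays. The dashed line marks equal differences, the 54 positive genes (red circles) lie above it and the 10 negative genes (blue squares) below it, and the red points fill the upper left, from Atp6v0d2 at the top, which differs in Tregs, to Klrg1 at the far left, which differs mainly in Tconv.

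A positive interaction widens the gap between the cell types by construction where a gene is already higher in Tregs. Among the 54 positive genes the difference between Tregs and Tconv had the same sign and was wider in KI for 49, was narrower for 1, Usp28, and changed its sign for 4. In WT cells 43 of the 54 were already higher in Tregs than in Tconv and 3 were lower. Over all genes 2818 differed between the WT cell types (34.6%), 16.7% higher and 17.9% lower in Tregs, and 3343 between the KI cell types (41.1%), 21.2% higher and 19.9% lower. Emp1, which encodes an epithelial membrane protein, is an example of a changed order. It read 5.34, 5.66, 5.66 and 5.58 in WT Tregs and 6.94, 6.73, 6.64 and 6.85 in KI Tregs, against 6.62, 6.53, 6.07 and 6.29 in WT Tconv and 6.25, 5.40, 5.07 and 6.52 in KI Tconv. Every WT Treg array lay below every WT Tconv array, and every KI Treg array above every KI Tconv array. Its interaction was 1.80 (SE 0.329, limma adjusted p = 0.0106).

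Among the genes whose genotype difference passed in Tregs, the interaction was largest for Ccnb2, described with the cell cycle genes, and next for Atp6v0d2, whose product is part of the pump that acidifies lysosomes. It read 3.59, 3.80, 4.05 and 3.81 in WT Tregs and 6.04, 6.19, 5.95 and 5.89 in KI Tregs. In Tconv it read 3.31 to 3.48 in WT and 3.26 to 3.55 in KI. Only the KI Treg arrays lay above 5, and the gene entered the test through them alone, so that it had to differ. The interaction of 2.16 (SE 0.202, limma adjusted p = 1.67e-05) understates the fold. Of the 54 positive genes 3 more entered through KI Tregs alone, Chdh, Esm1 and E2f8, as did 76 of all 8139. Of the 13 tested genes of the vacuolar proton pump this was the only one to pass, and the median of the list was 0.08.

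Nrn1, which encodes neuritin, a protein attached to the cell surface, had the smallest p of all genes. It read 8.82, 8.94, 8.72 and 8.90 in WT Tregs and 10.19, 10.07, 10.04 and 10.01 in KI Tregs, and 6.39 to 6.61 in WT Tconv and 5.98 to 6.26 in KI Tconv. The groups did not overlap in either cell type and moved in opposite directions. The difference was 1.23 in Tregs, which passed, and -0.34 in Tconv, which did not (limma adjusted p = 0.193). The interaction of 1.58 (SE 0.115, limma adjusted p = 6.57e-07) ranged from 1.52 to 1.61 when each array was left out in turn.

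Other large interactions of this kind were in genes of varied function. Chdh, which encodes choline dehydrogenase of the mitochondria, had an interaction of 1.89 and rose by 1.52 in Tregs. Rapgef5, which encodes an activator of Rap GTPases, had an interaction of 1.86, and a second probe set of the gene gave 1.75. Esm1, which encodes the secreted proteoglycan endocan, read the same in both WT cell types (5.02) and stood at 5.95 in KI Tregs and 4.24 in KI Tconv, with an interaction of 1.71. Further genes that rose in KI Tregs and passed for the interaction included Lgmn (1.34), which encodes the lysosomal protease legumain, Lgals1 (1.07), which encodes galectin-1, Ntn1 (1.30), Nxpe4 (1.35), Lamc1 (1.10), Cobll1 (1.16) and Bcl2l15 (1.43). Smaller interactions of genes that rose in KI Tregs included those of Ncmap (0.98), Glrx (0.84), Sytl2 (0.77), Tubb2a (0.76), Mafg (0.63), Psen2 (0.48), Gm2a (0.45) and Ripk3 (0.42).

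**Figure D2:**
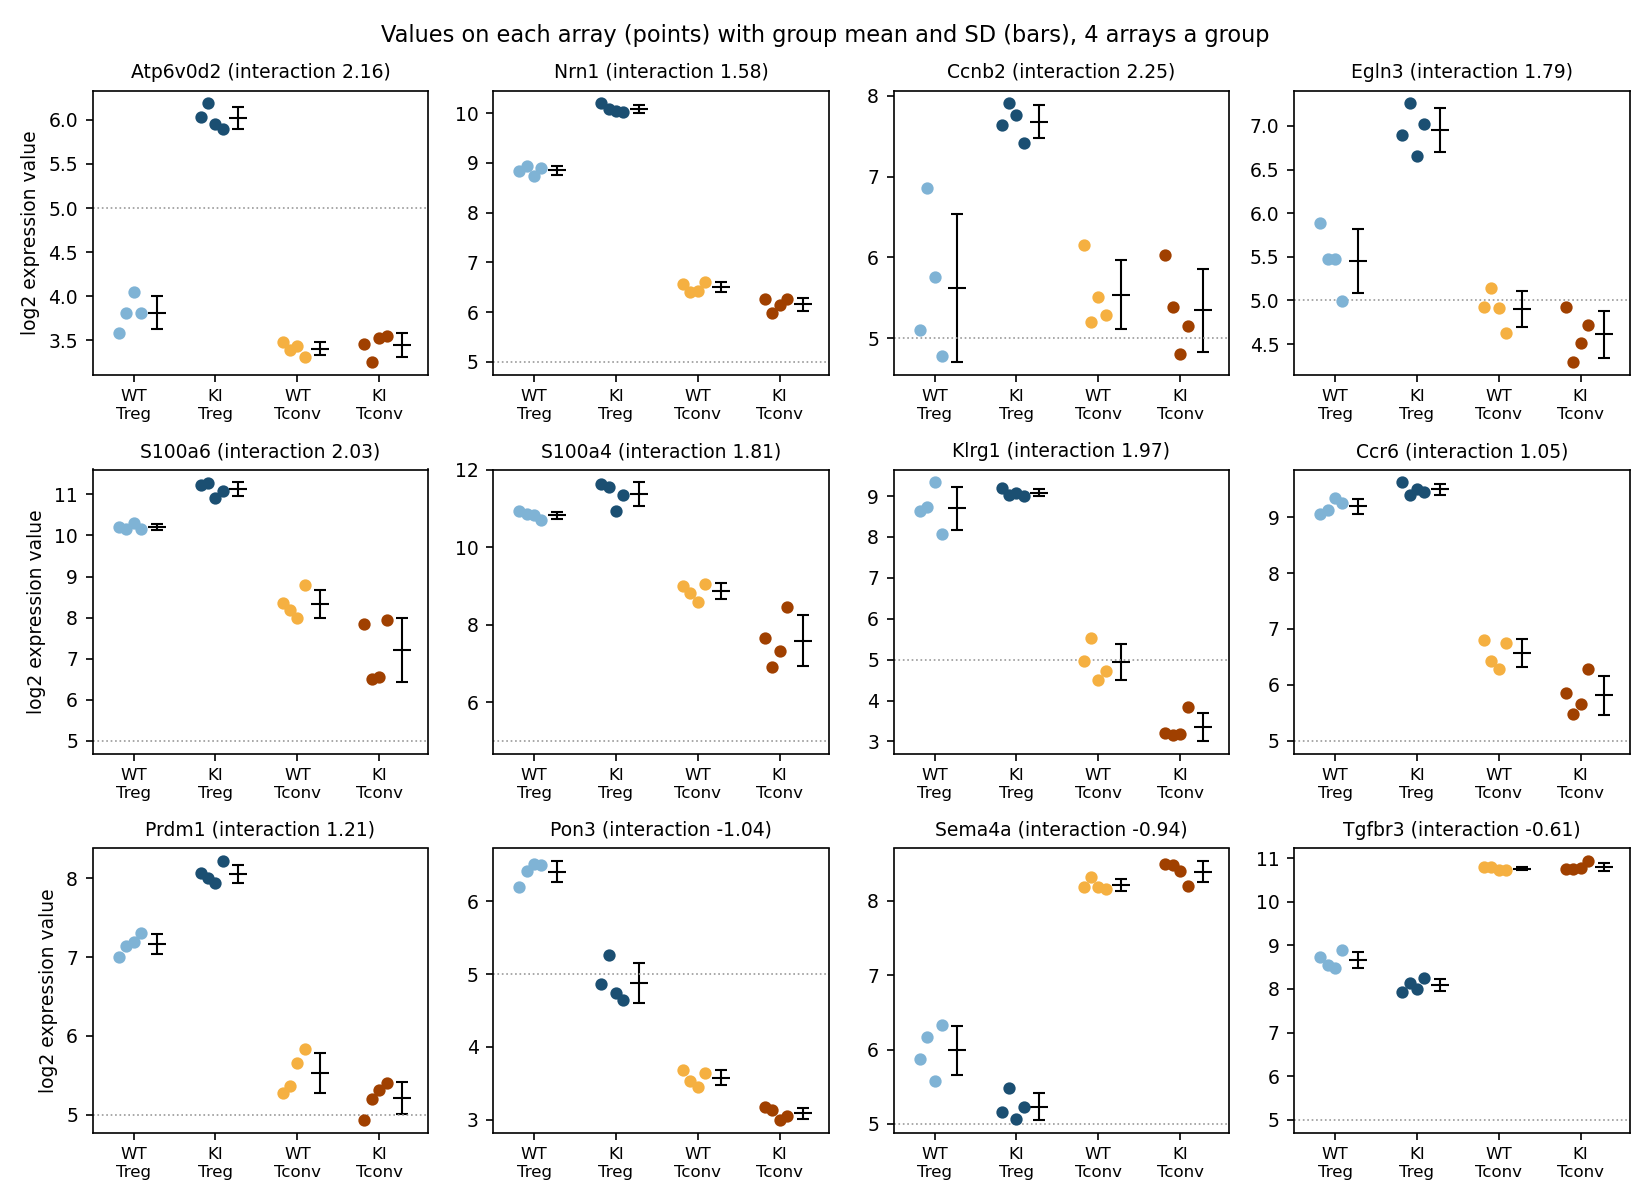
Log2 expression values of 12 genes are shown for each array (points, 4 per group, replicates 1 to 4 from left to right), with the group mean and SD beside them and a dotted line at 5, near background. Atp6v0d2, Nrn1, Ccnb2, Egln3 and Prdm1 differ between WT and KI in the Treg arrays, and Klrg1, S100a4 and Ccr6 mainly in the Tconv arrays. The S100a6 arrays do not overlap in either cell type, though neither difference passed by itself. Pon3, Sema4a and Tgfbr3 are lower in KI Tregs.

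The positive genes whose genotype difference passed in Tconv were Klrg1, S100a4, Eea1, Ccr6, Tiam1, Nrp1 and Ikzf2, each of which fell in KI Tconv. Klrg1 encodes an inhibitory receptor of effector Tregs and of differentiated NK and T cells. On the WT Tconv arrays it read 4.97, 5.54, 4.51 and 4.73, and on the KI Tconv arrays 3.21, 3.15, 3.19 and 3.85. The KI Tconv arrays all lay below the WT Tconv arrays and near background. In Tregs it read 8.64, 8.74, 9.33 and 8.07 in WT and 9.20, 9.04, 9.07 and 9.01 in KI, which overlapped. The interaction was 1.97 (SE 0.329), with a difference of 0.38 in Tregs (limma adjusted p = 0.417) and -1.59 in Tconv (limma adjusted p = 0.00332).

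S100a4, which encodes a calcium-binding protein of motile cells, read 9.00, 8.82, 8.60 and 9.05 in WT Tconv and 7.66, 6.90, 7.33 and 8.47 in KI Tconv. These did not overlap, and KI Tconv 4 lay closest to the WT arrays. Its interaction was 1.81 (SE 0.321, limma adjusted p = 0.00811). Ccr6, a chemokine receptor of memory and effector CD4 cells, read 6.80, 6.43, 6.29 and 6.75 in WT Tconv and 5.85, 5.48, 5.65 and 6.28 in KI Tconv. Here the highest KI array, KI Tconv 4, reached almost to the lowest WT array. The interaction of Ccr6 was 1.05 (SE 0.203). Tiam1 (1.03), which encodes an activator of Rac, and Eea1 (1.10), which encodes a protein of early endosomes, were 0.73 and 0.78 lower in KI Tconv by limma, and their Treg arrays did not overlap either. Their differences in Tregs did not pass.

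Nrp1 and Ikzf2, which encodes the Treg transcription factor Helios, belong to the defining markers of Tregs, and all 7 of these markers had negative differences in Tconv. Foxp3 (-0.93), Ikzf2 (-0.83) and Nrp1 (-0.77) passed there by limma, while Ikzf4 (-0.35), Ctla4 (-0.19), Il2ra (-0.10) and Tnfrsf18 (-0.03) did not. The summed unlogged signal of the 7 markers was 1461 to 1621 on the WT Tconv arrays and 1148 to 1275 on the KI Tconv arrays, against 12500 to 13590 in WT Tregs and 13250 to 14560 in KI Tregs. The KI Tconv arrays were thus all below the WT Tconv arrays, and in bulk samples fewer cells of a type and less RNA per cell cannot be told apart. Measured against the level in WT Tregs, the drop of the unlogged signal from WT to KI Tconv was 0.15% for Il2ra, 0.693% for Tnfrsf18, 0.737% for Ctla4, 1.27% for Foxp3, 1.70% for Ikzf4, 4.00% for Ikzf2 and 4.23% for Nrp1. For the other genes that fell it was 4.93% for Klrg1, 4.93% for Tiam1, 6.59% for Ccr6, 12.4% for Eea1 and 15.0% for S100a4. The part of the Treg markers in the lower values of these genes in KI Tconv was not tested. Of 5 markers of Tconv none passed in Tconv, and Pdlim4, Atp8b4 and Vipr1 stood at 10.4, 8.06 and 8.82 in WT and at 10.5, 8.06 and 8.96 in KI Tconv.

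Ikzf2 was the exception among the positive genes on the unlogged scale. It read 12.41 to 12.60 in WT Tregs and 12.32 to 12.46 in KI Tregs, and 9.06, 9.06, 8.91 and 9.06 in WT Tconv and 8.37, 8.02, 8.30 and 8.10 in KI Tconv. The Tconv groups did not overlap. The interaction was 0.75 (SE 0.102, limma adjusted p = 0.00139) on the log2 scale, but the same contrast of unlogged group means was -52.8, and a second probe set gave -0.30. The other 53 positive genes kept their sign on the unlogged scale. The interaction of Nrp1 was 0.82 (SE 0.176, limma adjusted p = 0.0331). It did not pass without any 1 of 11 arrays, which were all but WT Treg 2, WT Tconv 2, KI Treg 2, KI Treg 3 and KI Tconv 4 (0.72 to 0.93, adjusted p up to 0.0945).

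In 6 positive genes neither genotype difference passed by itself: Ccr2, Itgb1, Raph1, S100a11, S100a6 and Ttc39c. The largest interaction of these was that of S100a6, which encodes a calcium-binding protein. S100a6 read 10.20, 10.16, 10.31 and 10.17 in WT Tregs and 11.22, 11.29, 10.90 and 11.07 in KI Tregs. In Tconv it read 8.35, 8.19, 7.99 and 8.80 in WT and 7.84, 6.52, 6.56 and 7.95 in KI. The genotypes did not overlap in either cell type, and KI Tconv 2 and 3 lay far below the other Tconv arrays. The difference was 0.91 in Tregs (limma adjusted p = 0.0715) and -1.12 in Tconv (limma adjusted p = 0.19), whereas the interaction of 2.03 (SE 0.369, limma adjusted p = 0.0103) did.

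Of 12 tested genes of S100 proteins and their partners, 4 passed with a positive interaction, against 0.663% of all genes. A positive value was found for 10, against 4562 of all 8139 tested genes, and the median was 0.82 against 0.02. This list, like the others, was chosen with earlier results of these data known and holds S100a6, a marker of the contrast. These counts are therefore no independent test. The 4 were Anxa2 (1.49), whose product binds S100a10 at membranes, S100a4, S100a6 and S100a11 (0.96, SE 0.212, limma adjusted p = 0.0389). Anxa2 read 9.09 to 9.26 in WT Tregs and 9.89 to 10.13 in KI Tregs, and 7.60 to 8.25 in WT Tconv and 6.92 to 7.68 in KI Tconv, so that only the Tconv arrays overlapped. S100a11 did not pass without any 1 of 11 arrays, all but WT Treg 2, WT Tconv 3, KI Treg 3, KI Tconv 1 and KI Tconv 4 (0.87 to 1.08, adjusted p up to 0.108). S100a8 and S100a9, which neutrophils express, had values of 1.79 (SE 1.87) and 1.98 (SE 1.99) and did not pass. Anxa5 (-0.05), Anxa6 (0.08) and S100a10 (0.34) did not pass either. The list's median ranged from 0.54 without WT Treg 1 to 1.04 without WT Treg 4.

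Of the lists examined, that of effector Treg genes held the most genes that passed. Of 16 tested, 7 passed with a positive interaction and none with a negative one, 14 were positive, and the median was 0.75, where 0.663% of all genes passed with a positive interaction. The same number passed when each array was left out in turn. The list was chosen with earlier results of these data known and holds Klrg1, a marker of the contrast. In Tregs 9 of the 16 rose with KI, against 1.99% of all genes, and in Tconv 1 fell, Klrg1. Icos, which encodes a costimulatory receptor of effector Tregs, read 10.80, 10.57, 10.72 and 10.47 in WT Tregs and 11.22, 11.22, 11.26 and 11.16 in KI Tregs. In Tconv it read 9.10 to 9.50 in WT and 8.84 to 9.02 in KI. The genotypes did not overlap in either cell type and moved apart, but the difference of -0.37 in Tconv did not pass (limma adjusted p = 0.144). The interaction was 0.95 (SE 0.116, limma adjusted p = 0.000463), and 2 more probe sets of Icos gave 0.91 and 0.63.

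Prdm1, which encodes the transcription factor Blimp-1, read 7.01 to 7.31 in WT Tregs and 7.94 to 8.22 in KI Tregs, without overlap. Its Tconv arrays overlapped, at 5.27 to 5.83 in WT and 4.93 to 5.41 in KI, and the interaction was 1.21 (SE 0.18). Nfil3, a transcription factor induced by cytokines, differed in Tregs alone, with means of 6.03 and 7.12 there and of 4.19 and 4.18 in Tconv (interaction 1.10, SE 0.182). Itgae (1.49), the integrin chain CD103 of Tregs at epithelia, and Gzmb (1.29), the protease granzyme B, lay near background in Tconv and did not overlap there or in Tregs. Their differences passed in Tregs and not in Tconv. Tnfrsf1b, the TNF receptor that sustains Tregs, had an interaction of 0.83 (SE 0.14). Fgl2 (1.47, SE 0.445), Maf (0.67), Batf (0.39) and Irf4 (0.41) did not pass for the interaction, and Gata3 (0.05), Pdcd1 (-0.08) and Ebi3 (-0.17) lay near the median of all genes.

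Among 15 tested chemokine receptors and adhesion molecules 5 passed, all positive, where 0.663% of all genes passed with a positive interaction. The list's median was 0.22. Itgae is among the 5 and is also counted with the effector Treg genes and the genes of Treg identity. Ccr2, which guides cells to inflamed tissue, read 6.89, 6.55, 7.22 and 6.5 in WT Tregs and 7.95, 6.98, 7.59 and 8.07 in KI Tregs, and 5.22 to 5.93 in WT Tconv and 4.43 to 5.20 in KI Tconv. The Treg arrays overlapped, the Tconv arrays did not, and the interaction was 1.74 (SE 0.323, limma adjusted p = 0.0121), with 1.51 and 1.26 from 2 more probe sets. Ccr9, the receptor for the gut chemokine Ccl25, differed in Tregs alone (0.90 against 0.11 in Tconv, interaction 0.79, limma adjusted p = 0.0309). It did not pass without any 1 of 10 arrays, all but WT Treg 2, KI Treg 1, 2 and 3, and KI Tconv 1 and 4 (0.69 to 0.88, adjusted p up to 0.0876). Itgb1, the integrin beta chain of many matrix receptors, had an interaction of 0.80. The lymph node homing gene S1pr1 stood at -0.80 (SE 0.339) and did not pass, and none of the 7 resting and homing genes did (median -0.11).

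Genes of Treg identity showed a smaller shift. Of 22 tested, 3 passed (Ikzf2, Nrp1 and Itgae), all positive, against 0.663% of all genes. In all 17 were positive, against 4562 of all 8139 tested genes, and the median was 0.42. Foxp3 itself did not pass (0.84, SE 0.218, limma adjusted p = 0.106), with -0.09 in Tregs and -0.93 in Tconv. Ctla4 (0.83), Il2ra (0.57) and Capg (0.78, limma adjusted p = 0.0558) did not pass either. Of 11 genes low in Tregs, 1 passed, Tgfbr3, where 0.123% of all genes passed with a negative interaction, and 10 were negative (median -0.11). Neither list is independent of the cell types compared, and the lists were chosen with results of these data known.

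Genes of mitosis had mostly positive interactions, of which 1 passed. Of 36 on the array 20 were tested, and 3 of these met the filter on low values only through KI Tregs. The 20 ranged from 0.05 (Ndc80) to 2.25 (Ccnb2), with a median of 0.88. With no filter 35 of the 36 were positive with a median of 0.79 and 1 passed, and 8754 of all 17097 genes were positive. Of the 20 tested, 19 had their highest group mean in KI Tregs. Of the 24 tested genes of DNA replication 22 were positive, with a median of 0.25, and none passed. Of all 8139 tested genes 4562 were positive, and 0.663% passed with a positive interaction. Ccnb2, which encodes a mitotic cyclin, read 5.10, 6.86, 5.76 and 4.78 in WT Tregs and 7.64, 7.91, 7.76 and 7.42 in KI Tregs. In Tconv it read 6.15, 5.20, 5.51 and 5.28 in WT and 6.03, 5.39, 4.80 and 5.15 in KI. The KI Treg arrays lay above all others, WT Treg 2 came closest, and the Tconv groups overlapped. The interaction of 2.25 (SE 0.489, limma adjusted p = 0.036) did not pass without any 1 of 11 arrays, all but WT Treg 2, WT Tconv 2, KI Treg 4, KI Tconv 1 and KI Tconv 4 (1.97 to 2.66, adjusted p up to 0.0995).

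Arrays of a group varied in the whole list together. WT Treg 2 had the highest value of the WT Treg arrays for all 20 mitosis genes and for 20 of the 24 replication genes. The mean log2 level of the mitosis genes was 5.76 to 6.95 on the WT Treg arrays, 6.61 to 7.36 on the KI Treg arrays, 5.47 to 6.27 on the WT Tconv arrays and 5.19 to 6.03 on the KI Tconv arrays. The Treg groups overlapped through WT Treg 2, and for 3 of the 20 mitosis genes all KI Treg arrays lay above all WT Treg arrays, where 8.12% of all genes had no overlap in either direction. Without WT Treg 2 the list's median was 1.12 and 3 genes passed, both the highest with any 1 array left out. The median was lowest without WT Tconv 1, at 0.75. With most single arrays left out, that array included, no mitosis gene passed. Cdc20 (0.88, SE 0.228, limma adjusted p = 0.104), an activator of the anaphase complex, Mki67 (1.22, SE 0.397), the source of the Ki-67 antigen, and Birc5 (1.58, SE 0.562), which encodes survivin, did not pass. Cdc6, which loads the replicative helicase, had the largest value of the replication genes (1.10, SE 0.274, limma adjusted p = 0.0897). E2f8, a repressor in the E2F family that is on neither list, had an interaction of 1.49 (SE 0.304, limma adjusted p = 0.023), but lay above 5 on the KI Treg arrays alone.

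**Figure D3:**
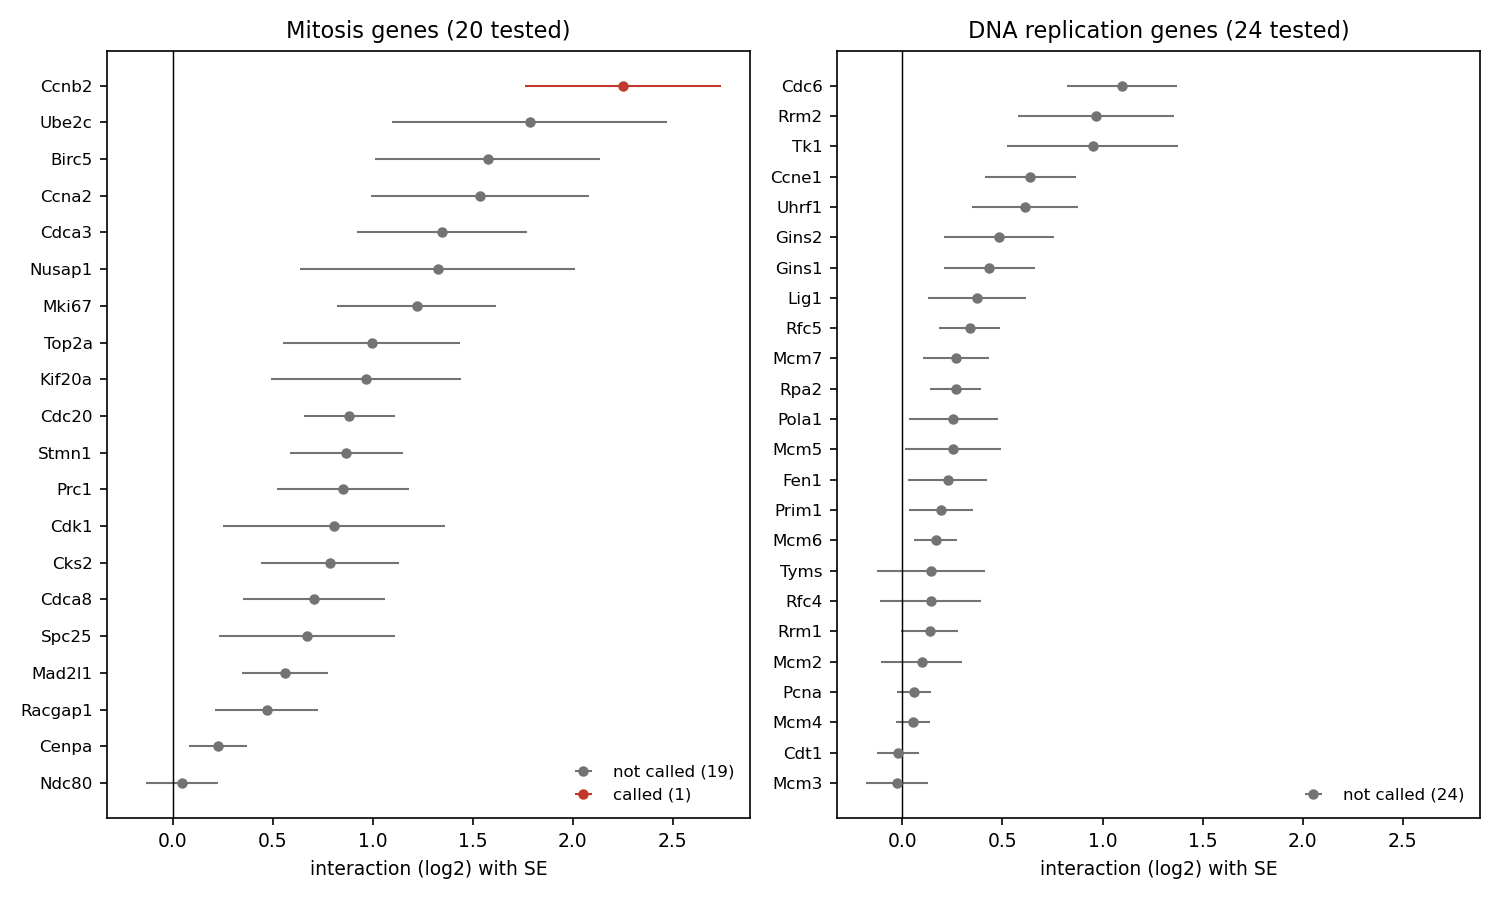
Each point gives the interaction (log2) of a tested mitosis gene (left, 20 genes) or DNA replication gene (right, 24 genes), with bars for the SE. All mitosis genes lie to the right of 0, led by Ccnb2 at 2.25, the 1 gene that passed, while replication genes extend from -0.03 (Mcm3) to 1.10 (Cdc6).

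Promoters are shown here because all tested mitosis genes had interactions of the same sign, and such genes often carry a cell cycle homology region and CCAAT boxes near their start. Sequences were taken from RefSeq (GRCm38.p6) as the first listed window of each gene, from 250 bases before to 50 bases after a listed start. This start need not be the outermost of the gene, and that of E2f8 lies inside the gene, which reaches to base 48882073. Both strands were searched for the letters TTTGAA, the core of the cell cycle homology region, and CCAAT, motifs that do not overlap. Of 32 mitosis genes with a promoter entry 24 held TTTGAA (75.0%), as did 3 of 25 replication genes and 18.1% of the windows of 27025 genes. CCAAT was found in 25 of the 32 (78.1%) and in 37.9% of all windows, and both motifs in 21 (65.6%) and in 7.12%. CCAAT was also found in 15 of the 25 replication genes (60.0%). Of 51 genes that passed for the interaction and had an entry, 21.6% held TTTGAA and 27.5% held CCAAT, against 11.7% and 39.1% of 6688 tested genes. The promoters of Ccnb2 (chr9:70421505-70421804, minus strand), E2f8 (chr7:48881547-48881846, minus strand) and Cdc20 (chr4:118437294-118437593, minus strand) read as follows, with matches on either strand in capitals.
Ccnb2: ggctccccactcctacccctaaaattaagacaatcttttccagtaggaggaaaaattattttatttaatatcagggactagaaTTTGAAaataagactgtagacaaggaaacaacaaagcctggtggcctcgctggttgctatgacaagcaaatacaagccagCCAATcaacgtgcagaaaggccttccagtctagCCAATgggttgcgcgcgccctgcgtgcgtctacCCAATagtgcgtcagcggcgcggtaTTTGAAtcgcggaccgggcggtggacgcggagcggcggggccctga
E2f8: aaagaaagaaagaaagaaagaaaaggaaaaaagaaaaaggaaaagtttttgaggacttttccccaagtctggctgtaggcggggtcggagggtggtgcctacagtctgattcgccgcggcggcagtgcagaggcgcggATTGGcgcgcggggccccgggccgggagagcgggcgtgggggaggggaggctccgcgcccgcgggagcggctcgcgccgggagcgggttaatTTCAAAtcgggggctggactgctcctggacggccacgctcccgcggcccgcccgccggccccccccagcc
Cdc20: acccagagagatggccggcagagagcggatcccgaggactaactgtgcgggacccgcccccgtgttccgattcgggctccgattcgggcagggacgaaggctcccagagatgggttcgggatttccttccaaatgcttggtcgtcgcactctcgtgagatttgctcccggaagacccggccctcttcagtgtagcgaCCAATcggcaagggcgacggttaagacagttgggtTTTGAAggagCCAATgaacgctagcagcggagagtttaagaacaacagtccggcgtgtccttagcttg

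In Ccnb2 the 3 CCAAT matches began 87, 54 and 21 bases before the start and were followed by a TTTGAA match just after it. In Cdc20 a TTTGAA match began 18 bases before the start, and in E2f8 its reverse complement began 20 bases before. A match describes these letters in the reference sequence and was not tested as a binding site in these cells.

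Of the lists of energy metabolism, that of glycolysis and the hypoxia response alone held interactions that passed. Among its 18 tested genes 2 passed, both positive, against 0.663% of all genes. In Tregs 7 of the 18 rose with KI, against 1.99% of all genes. Egln3, a prolyl hydroxylase that marks HIF proteins for breakdown and is itself induced by them, read 5.89, 5.47, 5.47 and 4.99 in WT Tregs and 6.90, 7.26, 6.65 and 7.02 in KI Tregs, against 4.63 to 5.14 in WT Tconv and 4.30 to 4.92 in KI Tconv. The Treg arrays did not overlap and the Tconv arrays did (interaction 1.79, SE 0.261, limma adjusted p = 0.00245). Hif1a, the hypoxia-inducible factor, had an interaction of 0.39 (SE 0.0879, limma adjusted p = 0.0459). It did not pass without any 1 of 11 arrays, all but WT Treg 2, KI Treg 2, KI Treg 3, KI Tconv 1 and KI Tconv 4 (0.33 to 0.43, adjusted p up to 0.122), nor with array medians equalized (0.36) or quantile normalization repeated (0.37). The glucose transporter gene Slc2a3 stood at 0.37 (SE 0.0891, limma adjusted p = 0.0721), and the list's median was 0.19. None of 23 genes of oxidative phosphorylation (median 0.11) and none of 15 of cholesterol synthesis (median 0.13) passed. Of these, 22 of the 23 and 11 of the 15 had a positive interaction, against 4562 of all 8139 tested genes.

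Most of the 10 negative genes fell in KI Tregs. The genotype difference in Tregs passed for 9 of them, where 0.848% of all genes passed as lower in KI, and in Tconv for none. The KI and WT Treg arrays did not overlap for any of the 10, against 8.12% of all genes without overlap. The 10 were chosen by an interaction taken from these same arrays. Their median difference was -0.60 in Tregs and 0.01 in Tconv. Pon3, which encodes a paraoxonase, read 6.20, 6.41, 6.51 and 6.49 in WT Tregs and 4.86, 5.26, 4.74 and 4.64 in KI Tregs, and 3.45 to 3.68 in WT Tconv and 3.0 to 3.18 in KI Tconv. Both cell types had lower KI arrays without overlap, and the Tconv arrays lay near background. The interaction was -1.04 (SE 0.207, limma adjusted p = 0.0201), but both Tconv groups lay below the highest control of 4.71, where a fall is understated, and the gene entered the test through WT Tregs alone.

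Several of the others encode surface proteins that Tconv express more strongly. Sema4a, a semaphorin, read 5.87, 6.17, 5.58 and 6.33 in WT Tregs and 5.16, 5.48, 5.06 and 5.23 in KI Tregs, against 8.16 to 8.33 in WT Tconv and 8.20 to 8.50 in KI Tconv. Only the Treg arrays were free of overlap (interaction -0.94, SE 0.19, limma adjusted p = 0.023). A pair of TGF-beta receptor genes, Tgfbr3 (-0.61, SE 0.12) and Tgfbr2 (-0.44, SE 0.0936), moved the same way, with Tgfbr2 at 10.58 to 10.76 in WT Tregs, 10.16 to 10.36 in KI Tregs and 11.33 to 11.62 over both Tconv groups. Akr1c13 (-0.93), an aldo-keto reductase, Ms4a4c (-0.72), Rasgrp2 (-0.57), an activator of Rap1, St8sia6 (-0.50), a sialyltransferase, and Emb (-0.48), a partner of monocarboxylate transporters, also fell in Tregs. Crim1 (-0.72) passed for neither difference by itself, with -0.36 in Tregs and 0.35 in Tconv. When each array was left out in turn, 1 to 13 negative interactions passed. The number was 1 without KI Treg 1, 2 without WT Tconv 3, 3 without WT Treg 3, WT Treg 4 or KI Treg 3, 4 without KI Tconv 3, and 5 without WT Treg 1, WT Tconv 4 or KI Tconv 2. Tgfbr3 did not pass without WT Treg 1 or KI Treg 1 (-0.67 to -0.53 over all arrays left out), and Pon3 without WT Treg 3, WT Treg 4, WT Tconv 3 or KI Treg 1 (-1.16 to -0.96). Akr1c13 passed without any 1 array, and each of the other 7 failed to pass without 6 to 14 of the 16.

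Most lists of signalling and response genes held no interaction that passed. Of 10 TNF receptor family genes Tnfrsf1b passed (median 0.11), where 0.663% of all genes passed with a positive interaction. None of 17 immediate response genes of the T cell receptor passed (median -0.06), with median genotype differences of 0.33 in Tregs and 0.25 in Tconv. Cd69, an early activation antigen, had 0.68 in Tregs, which passed, 0.74 in Tconv, which did not, and an interaction of -0.05 (SE 0.246). None of 16 interferon response genes (median -0.09), 11 helper genes (-0.02), 15 genes of the IL-2 and STAT5 pathway (0.11) or 18 apoptosis genes (0.08) passed. Gbp3, a guanylate-binding protein gene induced by interferon, came closest (0.95, SE 0.235, limma adjusted p = 0.0872), and passed with runs as a fixed or random block, with array weights and with quantile normalization repeated (0.95 to 1.09). Among 28 Foxp3 partners and chromatin genes Hif1a alone passed (median -0.03), and none of 20 neighbours of Foxp3 on the X chromosome did.

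The genes with a genotype difference in both cell types had small interactions. The genotype difference passed in both Tregs and Tconv for 3 genes, 3830406C13Rik (-3.82 and -3.64), Ccdc22 (-1.13 and -0.89) and Pon2 (-0.88 and -0.87), with interactions of -0.17 (SE 0.181), -0.24 (SE 0.158) and -0.01 (SE 0.175) that did not pass in limma. Ccdc22 lies beside Foxp3 on the X chromosome. Pon2 and Pon3 are neighbouring paraoxonase genes, and Pon3 passed for the interaction while Pon2 did not. Whether their interactions differ from each other was not tested. Of the 231 genes that differed with genotype in Tregs, 50 also passed for the interaction and 181 did not, and a p that misses the threshold does not show that the cell types respond alike.

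The interaction was also read in the arrays numbered 24 to 27, which hold all 4 groups in the same run of numbers. In the other 12 arrays alone 78 genes passed, 66 positive and 12 negative, 44 of them also among the 64 above. In the 4 arrays, which did not enter this fit, 61 of the 66 and 9 of the 12 had the same sign, against 43.1% of all tested genes. The 4 arrays did enter the choice of probe sets and the filter on low values, so the genes were not chosen wholly without them. Atp6v0d2 met that filter only because every KI Treg array lay above 5, KI Treg 4 included. The median of the positive genes was 1.03 in the 12 arrays and 0.76 in the 4, and that of the negative genes -0.65 and -0.27. Atp6v0d2 had 2.27 and 1.85 in the 12 and the 4 arrays, Nrn1 in the 4 had 1.47, Klrg1 1.82, S100a6 1.76 and Prdm1 1.33. S1pr1 was among the genes that turned, from -1.33 to 0.80. With 1 array per group there is no replicate check of these values. Of the 64 genes, 50 passed for the genotype difference in Tregs and 7 in Tconv without a run term, and 20 and 1 with 3 runs as a fixed block, where the genotypes are compared within the arrays numbered 24 to 27. In these 4 arrays the difference in Tregs was 2.08 for Atp6v0d2, 1.12 for Nrn1 and 2.03 for Egln3, and in Tconv -0.88 for Klrg1, -0.58 for S100a4 and -0.95 for Ikzf2.

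**Figure D4:**
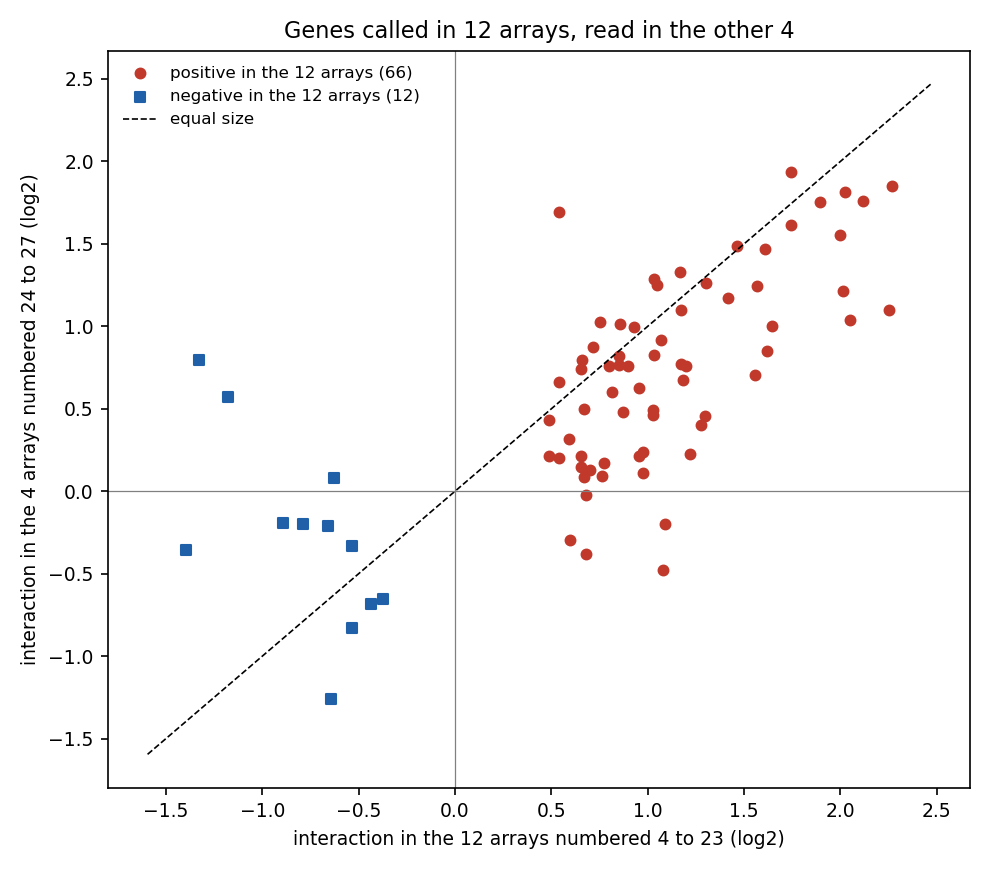
The interaction (log2) of 78 genes that passed in the 12 arrays numbered 4 to 23 is plotted on the horizontal axis against its value in the 4 arrays numbered 24 to 27 on the vertical axis, with positive genes as red circles, negative genes as blue squares and a dashed line of equal size. Of the 66 positive genes 61 lie above 0 on the vertical axis and of the 12 negative genes 9 lie below it.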

How the data were processed

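Gene expression was measured on 16 Affymetrix arrays with perfect match probes only, 1 per sample. The deposited values are log2 values per probe set, made by the authors by RMA in the Partek software, version 6.5, per the submitters' processing notes. Its options are not given in the sources used here. They ran from 1.95 to 13.9. Of 45141 probe sets 28898 matched 1 gene (28689 by Entrez identifier, 152 by symbol, 57 with the array's own symbol), 551 matched several, 15588 had no listed gene and 104 were controls. Each of 17097 genes was represented by its probe set with the highest mean, and those exceeding 5 (log2) on 4 or more arrays, 8139 genes, were tested.

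With limma 3.58.1 in R 4.3.3, group means were estimated from all 16 arrays together (lmFit, and eBayes with a trend). Two-sided p-values were adjusted over all 8139 genes (Benjamini-Hochberg), and genes under 0.05 after adjustment are said to have passed. The fit was tested on simulated data. Rises and falls are given for genes that passed. Genes named were the 12 largest positive and the 12 largest negative interactions that passed (of which there were 10), up to 4 members that passed of each list (or else its member with the lowest p), and Ccnb2, Atp6v0d2, S100a6, Klrg1 and Foxp3. Others were named after their values were seen. The contrast, its markers and the gene lists were chosen with earlier results of these data known. Lists are described by counts and medians, with no set test. Members that met the filter through 1 group alone were counted after the data were seen. The alternatives were other filters, probe set choices, scalings, variance models, array weights, run blocks and each array left out. Promoter windows came from RefSeq (GRCm38.p6).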

Additional observations from a re-analysis of the deposited data

Results flagged for a closer look

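The interaction itself is a difference between cell types in the genotype effect, and the named genes that passed for it in limma were, on the positive side, Ccnb2 (2.25), Atp6v0d2 (2.16), S100a6 (2.03), Klrg1 (1.97), Chdh (1.89), Rapgef5 (1.86), S100a4 (1.81), Emp1 (1.80), Egln3 (1.79), Ccr2 (1.74), Esm1 (1.71) and Nrn1 (1.58). Smaller positive values were those of Anxa2 (1.49), Itgae (1.49), Prdm1 (1.21), Nfil3 (1.10), Ccr6 (1.05), S100a11 (0.96), Icos (0.95), Tnfrsf1b (0.83), Nrp1 (0.82), Ccr9 (0.79), Ikzf2 (0.75) and Hif1a (0.39). Negative values were those of Pon3 (-1.04), Sema4a (-0.94), Akr1c13 (-0.93), Ms4a4c (-0.72), Crim1 (-0.72), Tgfbr3 (-0.61), Rasgrp2 (-0.57), St8sia6 (-0.50), Emb (-0.48) and Tgfbr2 (-0.44).

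Some arrays stood apart from the other 3 of their group for a named gene. Chance alone sets apart about 1 in 20 groups of 4, and here it was 8 of 188. KI Tconv 4 did so for Klrg1 (3.85 against 3.15 to 3.21), Tgfbr3 (10.92 against 10.74 to 10.77) and Jund (11.16 against 11.73 to 11.80). KI Treg 2 did so for Jund (11.17 against 11.62 to 11.71) and Rapgef5 (7.44 against 7.86 to 7.94). The others were WT Treg 1 for Anxa2 (9.09 against 9.25 to 9.26), WT Treg 2 for Emb (10.33 against 10.40 to 10.42) and WT Tconv 3 for Ikzf2 (8.91 against 9.06 on each of the other 3).

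Probe sets without a single listed gene were not part of the comparisons. Of 5694 such probe sets above the same filter, 12 passed for the interaction in limma (0.211%), 6 positive and 6 negative, from -1.23 to 2.01.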

How the results depend on the processing

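Of the 64 genes, each that an alternative filter, probe set choice, scaling, variance model or run block tested kept its sign, except Ikzf2, which gave -0.30 with the probe set of largest SD. The number that passed moved with the variance model. With array weights from 0.332 to 3.36 it was 453 (342 positive, 111 negative), and the genotype difference passed for 1715 genes in Tregs and 249 in Tconv. Without a variance trend 6 negative interactions passed. With 3 runs as a fixed block 17 negative interactions passed (87 in all), and the genotype difference passed for 29 genes in Tregs and 5 in Tconv. With 3 runs as a random block it passed for 130 in Tregs, and without the arrays numbered 24 to 27 for 422 in Tregs and 105 in Tconv. The cause of these changes was not tested.

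With each array left out in turn, 37 to 104 interactions passed (36 to 92 positive, 1 to 13 negative), and the genotype difference passed for 101 to 571 genes in Tregs and 7 to 65 in Tconv. Differences between Tregs and Tconv passed for 2443 to 2977 genes in WT and 2890 to 3346 in KI. In the arrays numbered 24 to 27 alone, Fdps (-0.16), Jund (0.41), S1pr1 (0.80) and Tfe3 (-0.22), none of which passed, had the opposite sign to that in all arrays. No paired analysis was possible because the labels give no replicate number that groups share. The precision is limited by 4 arrays per group and, below a value of about 5, by the background.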

Other observations

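Heat shock genes varied between arrays of the same group. Hspa1b, an inducible chaperone gene, had the largest negative value of all tested genes (-3.54, SE 1.47), which did not pass in limma (adjusted p = 0.496). It read 8.18, 8.36, 11.42 and 9.37 in WT Tregs, 6.40, 5.17, 8.94 and 7.33 in KI Tregs, 6.83, 7.66, 7.03 and 9.45 in WT Tconv and 5.89, 10.65, 11.35 and 7.73 in KI Tconv. All 4 groups overlapped with each other, and of 7 tested heat shock genes 1 was positive (median -0.19).

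Other probe sets of the genes that passed were compared with the chosen ones. There were 24 in 18 of the genes, of which 23 had the same sign and 8 passed over all probe sets. Rapgef5 (1.75), Glrx (0.94), Itgb1 (0.88) and Nrp1 (0.95) were among those that passed. Most of the 24 did not, among them those of Ccr9 (0.73), Tgfbr2 (-0.39), Crim1 (-0.53) and Emb (-0.28, -0.29 and -0.72), and a further probe set of Nrp1 (0.65).

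Among genes that missed the threshold for the interaction, Fbxo31 (0.77), Rpa1 (0.42), Capg (0.78), Cass4 (1.00) and Prag1 (-0.81) came closest, with limma adjusted p from 0.0525 to 0.0594.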
